A study of Mus musculus with 42 samples.

Results

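Young bone marrow-derived macrophages exposed to β-glucan for 24 h were compared with unexposed young macrophages by RNA sequencing. The comparison took 6 of the 42 libraries of the series: the 3 labelled 24 h of β-glucan in young cells, and the 3 young controls with the same replicate numbers, 1 to 3. All libraries came from male wild-type C57BL/6 mice, whose whole bone marrow was grown in macrophage colony-stimulating factor, a cytokine that turns marrow progenitors into macrophages. Young mice were 10 to 12 weeks old. The 24 h group received β-glucan at 5 µg/mL. The control group received 0.1% saline for 24 h and, per its title, was collected 3 days later, so the effect of β-glucan and that of the time of collection cannot be told apart. The labels call the libraries biological replicates without saying that each came from its own mouse. The p-values therefore measure a spread between libraries that may in part be technical. In the fit of all 42 libraries this spread was pooled over 14 groups, and in a fit of the 6 libraries alone it came from those. Young cells at 4 h of β-glucan, and control and 24 h cells of mice aged 18 to 20 months, served for a pair of further comparisons, with 3 libraries in each group. Aged controls also received 0.1% saline for 24 h and, per their titles, were collected 3 days later. The other libraries entered the fit of all 42 libraries and none of these comparisons. They were young controls 4 to 6, aged cells at 4 h of β-glucan, and further young and aged cells. These further cells were taken 3 days after β-glucan, after lipopolysaccharide (LPS, 4 h), or after β-glucan and then LPS.

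β-Glucan is a glucose polymer of fungal cell walls. Macrophages bind it through the lectin receptor dectin-1 (Clec7a), which signals through the kinase Syk and the CARD9, BCL10 and MALT1 complex to NF-κB, the transcription factor that drives cytokine genes. A first encounter with β-glucan is also known to change how macrophages answer a later stimulus, a state called trained immunity, and most of its early steps are read from genes of inflammation, metabolism and chromatin.

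The 6 libraries held 40621260 to 48302374 counts each. Macrophage identity genes (Csf1r, Spi1, Lyz2 and others) summed to between 34620 and 37500 CPM (counts scaled to the same library size) in the 24 h libraries and between 33770 and 37010 CPM in the controls. Several defining markers of T, natural killer, mast and erythroid cells (Cd3e, Ncr1, Mcpt8 and Hba-a1 among them) were at 0 in all 6 libraries, as were Ly6g and Mpo of neutrophils and Pax5 of B cells. Other markers of these lists were not all at 0. T cell markers summed to 3.6 to 10.4 CPM at 24 h and 2.8 to 6.3 CPM in controls. Natural killer, mast and erythroid markers each summed to at most 0.8205 CPM in any library. Stromal fibroblast markers summed to 34.2 to 39.1 CPM at 24 h and 31.4 to 43.8 CPM in controls. Neutrophil markers summed to 7.54 to 16.9 CPM at 24 h and 15.5 to 18.1 CPM in controls. B cell markers, mostly Ighm, summed to 3.36 to 5.98 CPM at 24 h and 7.56 to 13.3 CPM in controls. Endothelial markers, mostly Vwf, summed to 107 to 173 CPM at 24 h and 95.5 to 108 CPM in controls, and the part of these cells in the results was not tested. Dendritic cell markers summed to 3.32 to 4.04 CPM at 24 h and 2.70 to 3.46 CPM in controls. In the 42-library fit 2 genes of these other-cell lists were called higher, Xcr1 of dendritic cells and Vwf, and 2 lower, Ighm and Pecam1 of endothelium, and none was called in the 6 libraries alone. The 3 libraries of the 24 h group were not alike. Over 8499 genes whose log2 CPM averaged 3 or more, replicates 1 and 3 differed by a root mean square of 0.187 on the log2 scale. Replicate 2 lay 0.414 from replicate 1 and 0.363 from replicate 3, farther than its distance of 0.302 to 0.338 from the controls. The controls lay 0.173 to 0.28 from each other. The 24 h group had the largest median SD of log2 CPM among the 14 groups of the series, 0.14 against 0.109 in its controls. Values are therefore given for each library, in the order of replicates 1, 2 and 3.

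Of 17648 genes tested, 1387 were higher at 24 h (7.86%) and 765 were lower (4.33%) with edgeR's quasi-likelihood test fitted to all 42 libraries, at an adjusted p under 0.05 (Benjamini-Hochberg over all tested genes). The same test on the 6 libraries alone called 550 higher (3.15%) and 313 lower (1.79%) of 17473, or 863 genes (4.94%). That fit takes its spread from these 6 libraries. The 42-library fit pools it over 14 groups, among which the 24 h group had the largest median SD. Scaling by total counts in place of the trimmed mean of M-values (TMM) gave 953 higher and 1261 lower, with the median of all tested genes moved by -0.065 on the log2 scale. A total of 542 rises (3.07%) and 293 falls (1.66%) were called in both fits. The libraries of both groups did not overlap for 2439 genes that were higher at 24 h (13.8%) and 1981 that were lower (11.2%). Over the 542 rises called in both fits, the median log2 difference from the control mean was 0.90 in replicate 1, 0.51 in replicate 2 and 0.80 in replicate 3. Replicate 2 was the lowest 24 h library for 455 of these 542 genes, against 43.3% of all tested genes. Without 24 h replicate 2, 1827 genes were higher (10.4%) and 1302 lower (7.38%), and 1990 of the 2152 genes of the full comparison were called again. Without 24 h replicate 1 the counts were 611 and 224, without 24 h replicate 3 they were 825 and 329, and without control replicate 2 they were 824 and 370. In bulk samples, fewer cells of a type and less RNA per cell cannot be told apart. Below, "rose" and "fell" mark genes called in the 42-library fit, log2 fold changes carry their standard errors, and the adjusted p of the 6-library fit follows that of the 42-library fit. Counts in gene lists are read against 7.86% rising and 4.33% falling over all tested genes, or 3.15% and 1.79% in the 6 libraries.

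Among genes whose log2 CPM averaged 3 or more over the 6 libraries and that were called in both fits, the largest rise was that of Procr, the endothelial protein C receptor. It stood at 39.8, 27.4 and 34.1 CPM in the 24 h libraries and 3.97, 3.25 and 4.65 CPM in the controls, a log2 fold change of 3.09 ± 0.23 (edgeR adjusted p = 1.13e-10, and 1.07e-05 in the 6 libraries). All 3 treated libraries stood far above all 3 controls. Met, the receptor for hepatocyte growth factor, was at 22.8, 20.4 and 24.1 CPM against 3.97, 2.26 and 2.91 CPM (2.88 ± 0.34, edgeR adjusted p = 1.24e-06, and 6.3e-05). Cd274, which encodes the checkpoint ligand PD-L1, was at 131, 95.9 and 107 CPM against 26.3, 27.7 and 29.5 CPM (2.00 ± 0.14, edgeR adjusted p = 7.52e-12, and 1.07e-05). Il1rn, the secreted antagonist of the interleukin-1 receptor, was at 100.1, 88 and 112 CPM against 17.1, 21.5 and 16.5 CPM (2.44 ± 0.31, edgeR adjusted p = 2.79e-06, and 1.03e-05). In these 4 genes replicate 2 was the lowest treated library and still stood well above every control. Plk2, a stress-induced polo-like kinase, stood at 200.2, 148 and 189 CPM against 40.3, 55 and 40.3 CPM (1.99 ± 0.16). Plpp3, a lipid phosphate phosphatase, and Sdc1, the heparan sulfate proteoglycan syndecan-1, rose by 2.15 ± 0.20 and 2.14 ± 0.34 on the log2 scale. Slc7a11, Rsad2, Itgb3, Ifit1 and Oas3 complete the 12 largest of these rises and are given with their gene groups. Rises of the same size or more were also called in genes with a lower mean level. H2-M2, a nonclassical class I gene, was at 36.3, 14.1 and 26.6 CPM against 1.86, 1.76 and 2.59 CPM (3.63 ± 0.39, edgeR adjusted p = 2.97e-07, and 0.00218). Slamf8, a receptor of the SLAM family, was at 24.4, 10.8 and 20.8 CPM against 1.29, 2.53 and 2.19 CPM (3.21 ± 0.45, edgeR adjusted p = 1.46e-05, and 0.00216). In both, replicate 2 was below replicates 1 and 3 and above every control.

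**Figure D1:**
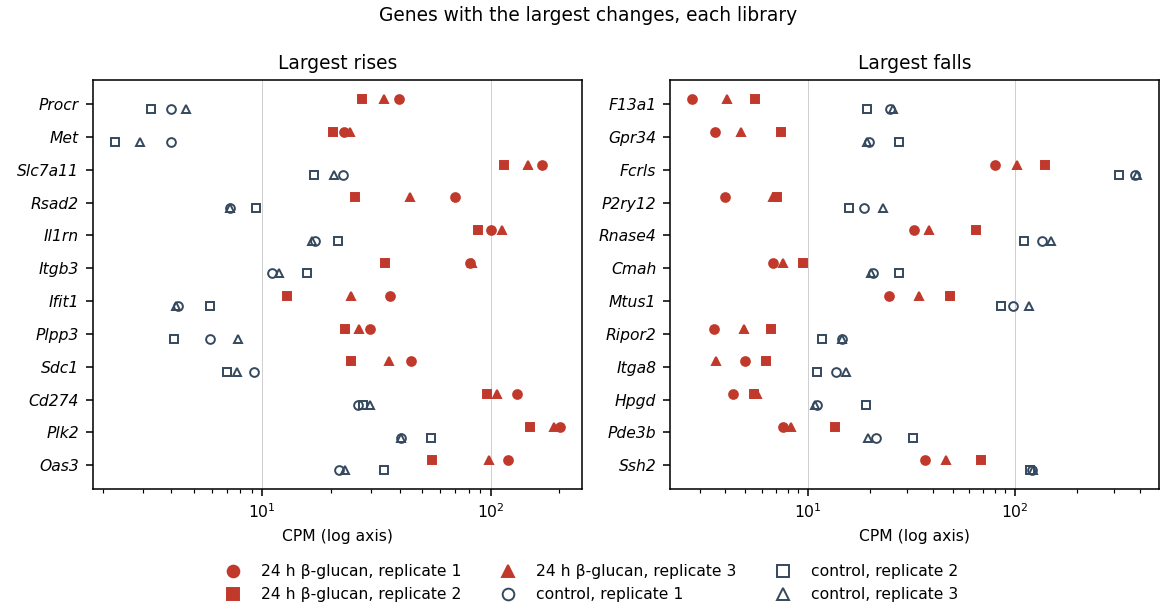
CPM on a log axis of the 12 largest rises and the 12 largest falls called in both fits, with 1 point per library (filled red, 24 h of β-glucan; open grey, control; the shape gives the replicate). The groups do not overlap for any of these genes, by the way they were chosen, and the red squares of replicate 2 lie nearest to the controls in most rows.

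The largest falls called in both fits included receptors of the cell surface and secreted proteins. F13a1, the A subunit of coagulation factor XIII, was at 2.76, 5.55 and 4.08 CPM against 24.9, 19.2 and 25.7 CPM (-2.49 ± 0.37, edgeR adjusted p = 2.76e-05, and 0.00042). Gpr34, a receptor for lysophosphatidylserine, was at 3.56, 7.4 and 4.77 CPM against 19.8, 27.4 and 19.3 CPM (-2.08 ± 0.33, edgeR adjusted p = 6.16e-05, and 0.00286). P2ry12, an ADP receptor, was at 3.98, 7.08 and 6.82 CPM against 18.7, 15.7 and 23 CPM (-1.68 ± 0.38, edgeR adjusted p = 0.00314, and 0.00307). Replicate 2 was the highest treated library in these 3 genes, and none of the treated libraries reached the controls. Fcrls, an Fc receptor-like scavenger receptor of mice, stood at 79.7, 140.4 and 103 CPM against 379, 317 and 388 CPM (-1.75 ± 0.29). Rnase4, a secreted ribonuclease, fell by 1.54 on the log2 scale and Cmah, which hydroxylates sialic acid, by 1.51. Mtus1, Ripor2, Itga8, Hpgd (an enzyme that inactivates prostaglandins), Pde3b and Ssh2 fell by 1.25 to 1.48 on that scale. Cx3cr1, the fractalkine receptor, fell unevenly, at 33.7, 202 and 49.96 CPM against 444, 304 and 491 CPM (-2.11 ± 0.53, edgeR adjusted p = 0.00825). Replicates 1 and 3 held a small part of the control level and replicate 2 much more of it. For Cx3cr1 the edgeR adjusted p was 0.251 in the 6 libraries alone, 0.0798 without 24 h replicate 1 and 0.0664 without 24 h replicate 3.

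Receptors for sugars, dying cells and antibodies were among the falls. Mrc1, the mannose receptor, was at 366, 484 and 444 CPM against 708, 818 and 749 CPM (-0.81 ± 0.15, edgeR adjusted p = 0.000273, and 0.00285). Stab1, the scavenger receptor stabilin-1, was at 942, 1060 and 1018 CPM against 2007, 1549 and 2059 CPM (-0.89 ± 0.13, edgeR adjusted p = 6.22e-06, and 0.00206). Fcgr2b, the inhibitory Fc receptor for IgG, was at 123, 126 and 128 CPM against 227, 208 and 220.2 CPM (-0.80 ± 0.13, edgeR adjusted p = 4.99e-05, and 0.00042). The 3 treated libraries were close to each other in these genes, replicate 2 included, and lay below every control. Of 26 scavenger and efferocytosis receptors 5 fell and 2 rose, against 4.33% and 7.86% of all tested genes, so the share that rose was near that of all genes. Among 11 Fc and complement receptors 3 fell and none rose. They were Fcrls, Fcgr2b and, less evenly, Itgam, a subunit of complement receptor 3, at 132, 195 and 144 CPM against 204, 204 and 202 CPM (-0.38 ± 0.11). Over the 11 receptors the mean log2 CPM at 24 h differed by -0.380, -0.508 and -0.535 from the mean of controls 1 to 3. Young controls 4, 5 and 6 differed from it by -0.252, -0.402 and -0.377. The spread between young controls thus reached the level of 24 h replicate 1. The Itgam call had an edgeR adjusted p of 0.0231 in the 42 libraries, 0.128 in the 6 libraries, 0.235 without 24 h replicate 1, 0.141 without 24 h replicate 3, 0.0606 without control replicate 1, 0.0678 without control replicate 2 and 0.0513 without control replicate 3. Of 10 monocyte genes 4 fell and none rose, with a median log2 fold change of -0.59 against 0 over all tested genes. Ms4a6b was the most even of them at 49.8, 52.2 and 49.5 CPM against 85.6, 79.8 and 90.1 CPM (-0.75 ± 0.14, edgeR adjusted p = 0.000349, and 0.00119). Of 32 pattern receptors and adaptors 5 rose and 4 fell, with a median log2 fold change of 0.02. The adaptor Ticam1 was at 28.4, 26.2 and 28.5 CPM against 18.8, 21.7 and 18.4 CPM (0.50 ± 0.11, edgeR adjusted p = 0.00129, and 0.0409), and Casp4, the noncanonical inflammasome caspase, at 29.7, 28.1 and 32.3 CPM against 21, 22.7 and 22.1 CPM (0.45 ± 0.11, edgeR adjusted p = 0.00406, and 0.0472). Both were higher in all 3 treated libraries. The inflammasome sensor Nlrp1b fell from 64.3, 48.2 and 59.3 CPM to 27.1, 22 and 28.1 CPM (-1.16 ± 0.18), and the RNA sensor Tlr7 fell from 196, 209.8 and 189 CPM to 118, 148 and 135 CPM (-0.57 ± 0.11). Csf1r, the receptor for macrophage colony-stimulating factor, did not pass the test, at 2388, 1859 and 2474 CPM against 2151, 2323 and 2228 CPM (log2 fold change 0.00 ± 0.10). Of 19 macrophage identity genes 4 rose and 3 fell, with a median log2 fold change of 0.12. The lineage factors Cebpb (1.24 ± 0.29) and Spi1 (0.56 ± 0.12) rose and Maf (-0.35 ± 0.08) fell, each called in both fits.

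Interferon-stimulated genes rose together, and to unequal extents in the 3 libraries. Interferons switch on antiviral genes through the interferon-stimulated response element in their promoters. Of 56 genes tested 42 rose and none fell, against 7.86% and 4.33% of all tested genes, and 19 were called in the 6 libraries alone. The median log2 fold change was 0.90, against 0 over all tested genes, and the groups did not overlap, with 24 h higher, for 36 of the 56, against 13.8% of all tested genes. By library, the median log2 difference from the control mean was 1.30, 0.33 and 0.92 in replicates 1, 2 and 3. Replicate 2 was the lowest treated library for 53 of the 56 genes. It was the lowest for 43.3% of all tested genes and for 83.9% of the 542 rises called in both fits. Replicate 2 was known beforehand to lie apart in interferon genes, so this count is a description. Replicate 2 lay within the range of the controls for 18 of the 56, against 8062 of all 17648 tested genes. Its mean log2 CPM over this list stood 0.515 above the mean of controls 1 to 3. Young controls 4 and 6 stood 0.506 and 0.366 above that mean, and young control 5 differed from it by -0.245. The rise of replicate 2 in this list therefore cannot be told apart from the spread between young controls. Without 24 h replicate 2, the library known to have the smaller rise, 48 of the 56 were called higher.

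The core of the response element, GAAA followed by any 2 bases and GAAA again, was searched on both strands and was found in 28 of 48 promoter windows of 41 of these genes (58.3%), against 3.4% of 32851 windows of all genes (250 bases before to 50 after each gene start, RefSeq, build GRCm38.p6, the same assembly as mm10). A pair of promoters is shown because their genes rose in both fits and carry the element more than once. The capitals mark the element, which reads TTTC, any 2 bases and TTTC where it lies on the other strand, and each sequence is the 250 bases before the start, 5′ to 3′ on the strand of the gene.
Isg15 (chr4:156200819-156201068, minus strand): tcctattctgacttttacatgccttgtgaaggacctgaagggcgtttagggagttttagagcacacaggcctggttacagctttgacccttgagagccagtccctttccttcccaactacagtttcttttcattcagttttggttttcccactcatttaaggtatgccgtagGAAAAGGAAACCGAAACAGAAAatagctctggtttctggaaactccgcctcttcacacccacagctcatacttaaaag
Ifit1 (chr19:34640639-34640888, plus strand): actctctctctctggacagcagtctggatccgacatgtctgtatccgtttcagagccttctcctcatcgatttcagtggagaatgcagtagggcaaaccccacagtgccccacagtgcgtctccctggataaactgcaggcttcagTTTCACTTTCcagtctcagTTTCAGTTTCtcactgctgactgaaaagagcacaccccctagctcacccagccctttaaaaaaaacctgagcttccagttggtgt
In Isg15 the 3 matches overlap by 4 bases each and form 1 run, and in Ifit1 the 2 matches lie apart.

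Isg15, a ubiquitin-like modifier, was at 18.3, 6.89 and 11 CPM against 3.05, 1.75 and 2.61 CPM (2.29 ± 0.38, edgeR adjusted p = 0.000144, and 0.0112). Ifit1, which binds foreign RNA, was at 36.4, 12.9 and 24.4 CPM against 4.28, 5.9 and 4.19 CPM (2.35 ± 0.42, edgeR adjusted p = 0.000338, and 0.0172). Rsad2, the antiviral enzyme viperin, was at 69.7, 25.5 and 44.3 CPM against 7.22, 9.38 and 7.2 CPM (2.55 ± 0.34, edgeR adjusted p = 6.88e-06, and 0.0199). In all 3 genes replicate 1 was highest and replicate 2 lowest, and the groups did not overlap. Oas3, an oligoadenylate synthetase, stood at 119.6, 55.5 and 98.3 CPM against 21.7, 34.1 and 22.9 CPM (1.79 ± 0.31, edgeR adjusted p = 0.000235, and 0.0428). Rtp4, a chaperone with antiviral activity, was more even, at 46.6, 26.6 and 30.6 CPM against 14, 12.8 and 12.7 CPM (1.40 ± 0.27, edgeR adjusted p = 0.000786, and 0.00282). The chemokine Cxcl10 was at 12.8, 3.21 and 8.83 CPM against 1.06, 1.9 and 1.52 CPM (2.46 ± 0.51, edgeR adjusted p = 0.0016, and 0.0316). The gap between replicate 2 and the other treated libraries was widest in Gbp2, Ifit2, Gbp3, Irf7 and Ifit3 among members whose log2 CPM averaged 3 or more, and their values are given as a description. Ifit2 was at 116, 20.0 and 62.4 CPM against 13.6, 15.3 and 13.8 CPM, and Gbp2, a guanylate-binding protein, was at 69.5, 13.8 and 52.3 CPM against 7.2, 10.9 and 8.55 CPM. Replicate 2 lay just above the highest control in both. Irf7, the factor that amplifies type I interferon, was at 61.3, 16.3 and 36.6 CPM against 6.4, 7.03 and 10.0 CPM (2.29 ± 0.36, edgeR adjusted p = 8.05e-05). In the 6 libraries alone the edgeR adjusted p of Irf7 was 0.085. Ifnb1, the gene of interferon β, was at 0.0199, 0 and 0 CPM at 24 h and at 0 in all controls. Of 14 interferon and receptor genes 3 rose, against 7.86% of all tested genes, and none in the 6 libraries alone. Reads of near-identical members such as Ifit3 and Ifit3b, or Oas1a and Oas1g, may have been divided between them.

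**Figure D2:**
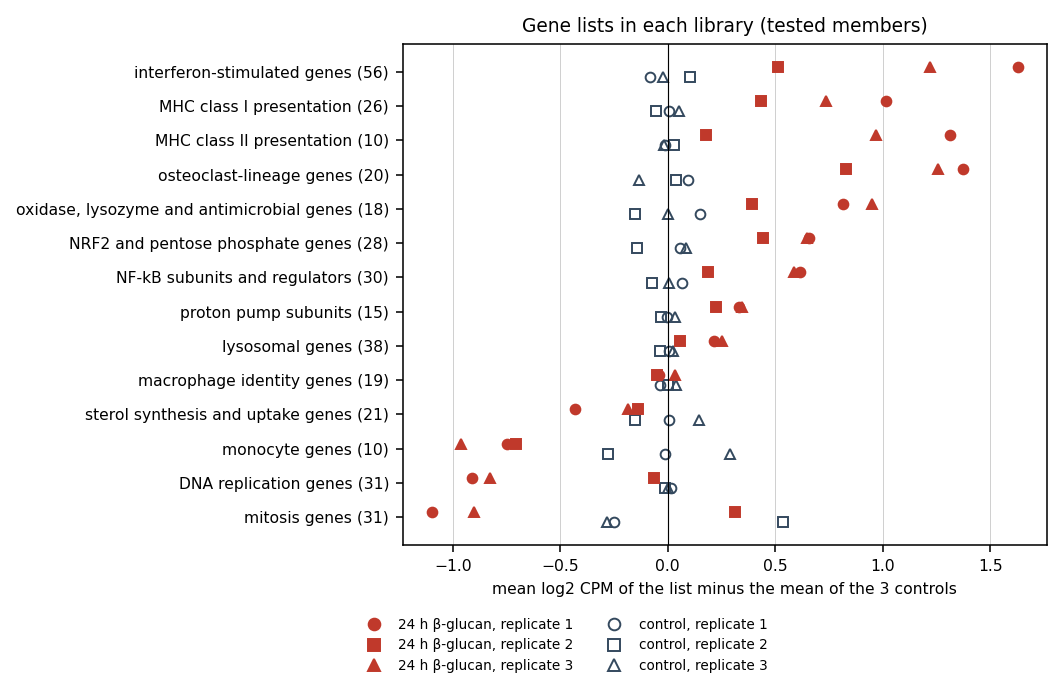
Mean log2 CPM of the tested members of 14 gene lists (number of members in brackets) in each library, minus the mean of the 3 controls. Filled red points are the 24 h libraries and open grey points the controls; replicate 2 (squares) lies between the controls and the other treated libraries for interferon-stimulated genes and near the controls for DNA replication genes.

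Antigen presentation genes rose in part. Class I molecules display peptides cut by the proteasome to T cells, and class II molecules display peptides from endosomes. Of 26 class I pathway genes 18 rose and 2 fell, against 7.86% and 4.33% of all tested genes. Their median log2 fold change was 0.55, and 10 rises were called in the 6 libraries alone. H2-T24 was at 22.5, 13.1 and 16.1 CPM against 7.54, 8.66 and 8.66 CPM (1.05 ± 0.28, edgeR adjusted p = 0.0111, and 0.0134), with an edgeR adjusted p of 0.122 without 24 h replicate 1. Psme2, a subunit of the proteasome activator, was at 88.1, 66 and 67.1 CPM against 51.5, 38.4 and 47.4 CPM (0.69 ± 0.13, edgeR adjusted p = 0.000373, and 0.0213). H2-Q7 was at 4.99, 1.78 and 2.05 CPM against 0.444, 0.565 and 0.571 CPM (2.48 ± 0.44, edgeR adjusted p = 0.000166, and 0.0114), though it is so like H2-Q6 that reads may have been divided between them. The 2 falls were those of the chaperones Pdia3 (-0.35 ± 0.10) and Canx (-0.28 ± 0.07), with edgeR adjusted p of 0.0136 and 0.0094, and of 0.12 and 0.129 in the 6 libraries. Those values were 0.179 without 24 h replicate 1, 0.0907 without 24 h replicate 3 and 0.0536 without control replicate 1 for Pdia3, and 0.135 without 24 h replicate 1, 0.0581 without 24 h replicate 3 and 0.0766 without control replicate 2 for Canx. Of 10 class II genes 5 rose, 2 of them in the 6 libraries alone, with a median log2 fold change of 1.25. The median differences from the control mean were 1.77, 0.33 and 1.31 by library. H2-Aa was at 11.6, 2.94 and 7.28 CPM against 1.67, 2.22 and 1.47 CPM (2.02 ± 0.55, edgeR adjusted p = 0.0134, and 0.0409). H2-Ab1 was at 9.33, 3.65 and 5.51 CPM against 1.12, 1.44 and 2.67 CPM (1.83 ± 0.49, edgeR adjusted p = 0.0128, and 0.0351). Replicate 1 was highest and replicate 2 lowest in both genes. The edgeR adjusted p of H2-Aa was 0.139 without 24 h replicate 1, 0.0522 without control replicate 1 and 0.0553 without control replicate 3, and that of H2-Ab1 was 0.132 without 24 h replicate 1, 0.0709 without control replicate 1 and 0.0689 without control replicate 2.

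Genes of DNA replication and mitosis were much lower in 24 h replicates 1 and 3 than in the controls, and not in replicate 2. Of 31 DNA replication genes 10 fell and none rose in the 42-library fit, against 4.33% and 7.86% of all tested genes. Their median log2 fold change was -0.61, and none was called in the 6 libraries alone. The median differences from the control mean were -1.01, -0.07 and -0.90 in replicates 1, 2 and 3. Replicate 2 was the highest treated library for 29 of the 31 genes. It was the highest for 35.4% of all tested genes and for 68.9% of the 293 falls called in both fits. Replicate 2 was known beforehand to lie apart in cell cycle genes, so this count is a description. Of 31 mitosis genes none was called in either fit. Without replicate 2, 27 DNA replication and 23 mitosis genes were called lower, but the library left out is the one known to lack the fall, so these counts describe replicates 1 and 3 and do not show a fall in the group. The median differences of the mitosis genes were -1.20, 0.30 and -0.91 at 24 h and -0.25, 0.54 and -0.31 in control replicates 1, 2 and 3. Control replicate 2 thus stood above control replicates 1 and 3 for this list. In mean log2 CPM it stood 0.534 above the mean of controls 1 to 3. Young controls 4, 5 and 6 stood 0.364, 0.328 and 0.479 above that mean, nearer to control replicate 2 than to control replicates 1 and 3 (-0.252 and -0.282). Mcm6, a subunit of the replicative helicase, was at 133, 210.4 and 137 CPM against 274, 226 and 257 CPM (-0.66 ± 0.17, edgeR adjusted p = 0.00847, and 0.0852 in the 6 libraries, 0.0949 without 24 h replicate 1 and 0.0707 without 24 h replicate 3). Pola1, the catalytic subunit of the DNA polymerase that starts synthesis, was at 22.8, 50.3 and 23.5 CPM against 56.8, 56.9 and 60.5 CPM (-0.85 ± 0.25, edgeR adjusted p = 0.0217). For Pola1 the edgeR adjusted p was 0.226 in the 6 libraries, 0.176 without 24 h replicate 1, 0.15 without 24 h replicate 3, 0.0552 without control replicate 2 and 0.0568 without control replicate 3. Pola1 was chosen, like Ccne2 and Rrm2, because replicate 2 lay farthest from the other treated libraries in it, so the gap in these genes is a description and carries no test. Cyclin E2 (Ccne2) was at 12.5, 35.4 and 14.9 CPM against 35.8, 36.8 and 33.5 CPM. Ribonucleotide reductase subunit Rrm2 was at 40.5, 86.6 and 38.1 CPM against 81.4, 101 and 77 CPM. The proliferation marker Mki67 was at 129, 372 and 146 CPM against 297, 537 and 285 CPM, and the topoisomerase Top2a at 124, 346 and 138 CPM against 266, 451 and 254 CPM (edgeR adjusted p = 0.118 and 0.153). In both, replicates 1 and 3 lay below all controls and replicate 2 lay between control replicate 2 and the other controls.

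The cell cycle homology element TTTGAA, a promoter sequence of mitotic genes, was found on either strand in 21 of 27 promoter windows of 25 mitosis genes (77.8%), in 3 of 29 windows of DNA replication genes (10.3%) and in 17.9% of all windows. The promoter of Top2a is shown because its gene follows the pattern of the list, with the element in capitals (TTCAAA on the other strand).
Top2a (chr11:99024190-99024439, minus strand): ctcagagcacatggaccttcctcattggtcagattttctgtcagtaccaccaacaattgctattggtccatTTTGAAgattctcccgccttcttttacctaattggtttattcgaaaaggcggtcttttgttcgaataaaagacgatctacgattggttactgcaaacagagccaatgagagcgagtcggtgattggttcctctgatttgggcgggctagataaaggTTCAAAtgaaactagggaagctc

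**Figure D3:**
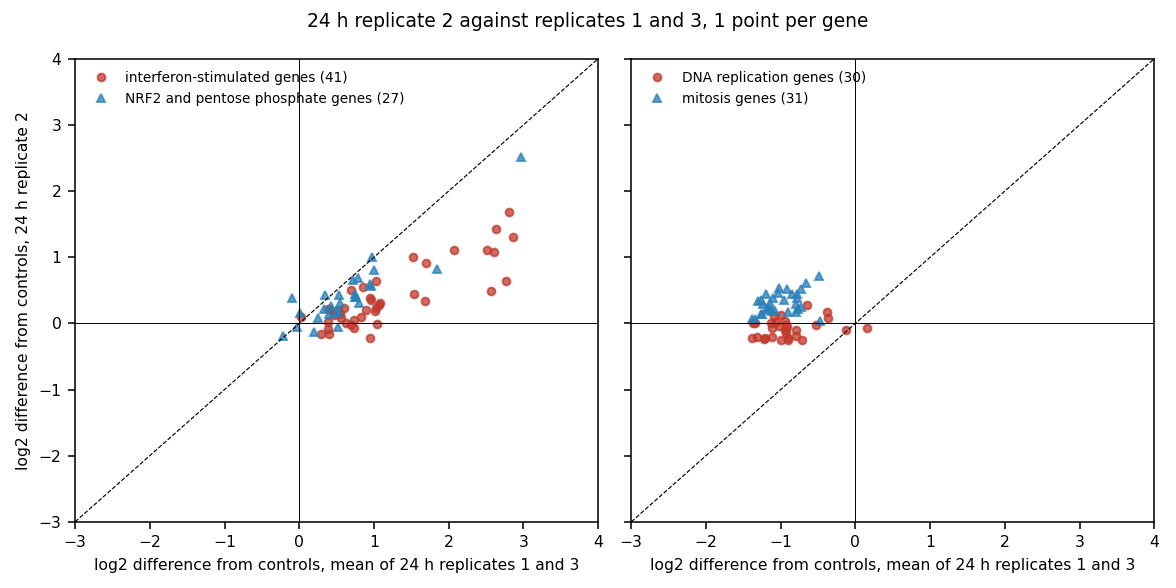
Each point is a gene whose log2 CPM averaged 3 or more; the x axis gives the log2 difference of 24 h replicates 1 and 3 (their mean) from the mean of the controls and the y axis that of 24 h replicate 2, both from log2(CPM + 0.1), with the dashed line marking equal values. NRF2 and pentose phosphate genes (blue, left) lie near the line and mostly below it, interferon-stimulated genes (red, left) lie farther below it, and DNA replication and mitosis genes (right) lie far to the left at y values near or above 0.

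Among cell cycle inhibitors and p53 target genes 6 of 18 rose and 1 fell, against 7.86% and 4.33% of all tested genes. Cdkn1c, the imprinted gene of the inhibitor p57, was at 82.2, 10.8 and 51.4 CPM against 0.976, 0.753 and 1.03 CPM (5.71 ± 0.75, edgeR adjusted p = 5.83e-06, and 0.0478). The treated libraries had the same order as for the interferon-stimulated list, replicate 1 highest and replicate 2 lowest, and all stood above the controls. At 4 h it was at 0.733, 1.13 and 0.789 CPM, the level of the controls. Mdm2, the p53 antagonist, was at 174, 205 and 186 CPM against 133, 148 and 125 CPM (0.48 ± 0.08), and Gadd45a, a growth arrest gene, at 16.8, 14.8 and 17.8 CPM against 9.37, 11.8 and 8.47 CPM (0.74 ± 0.17). Both were called in both fits, and in both the 3 treated libraries were alike. Cdkn1a, the gene of p21, did not pass the test, at 240.1, 292 and 229.5 CPM against 211, 258 and 229 CPM (edgeR adjusted p = 0.609). Rb1, the retinoblastoma protein, was the 1 fall, at 76.6, 94 and 79.2 CPM against 107, 119.9 and 101 CPM (-0.39 ± 0.12, edgeR adjusted p = 0.0195, and 0.0529 in the 6 libraries, 0.141 without 24 h replicate 1, 0.0979 without 24 h replicate 3 and 0.126 without control replicate 2).

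In the β-glucan receptor pathway 8 of 18 genes rose and 2 fell, against 7.86% and 4.33% of all tested genes. In the 6 libraries 5 rises and 1 fall were called. Clec4n, which encodes the fungal lectin receptor dectin-2, was at 473, 368 and 475 CPM against 241, 180.4 and 257 CPM (0.96 ± 0.22, edgeR adjusted p = 0.00455, and 0.00579). Syk, the kinase next to these receptors, was at 528, 378 and 469.8 CPM against 312, 302 and 312 CPM (0.57 ± 0.10, edgeR adjusted p = 5.94e-05, and 0.0189). Malt1, the protease of the signalling complex, was at 65.4, 53.2 and 58.7 CPM against 34.3, 36.1 and 31.6 CPM (0.80 ± 0.13, edgeR adjusted p = 3.69e-05, and 0.00242). Every treated library exceeded every control in these 3 genes. Clec4d, a partner lectin of dectin-2, and Itgb2, the β subunit of complement receptor 3, rose by 0.52 ± 0.10 and 0.35 ± 0.07 on the log2 scale. Clec7a itself, the gene of dectin-1, was at 466, 359.6 and 495 CPM against 195, 361 and 177 CPM (0.85 ± 0.23, edgeR adjusted p = 0.0136). Its groups overlapped, since replicate 2 of both groups stood at the same level, and the edgeR adjusted p was 0.194 in the 6 libraries, 0.068 without 24 h replicate 1, 0.0721 without 24 h replicate 3, 0.0818 without control replicate 1 and 0.0872 without control replicate 3.

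Part of the NF-κB genes and cytokines rose at 24 h. Of 30 NF-κB subunits and regulators 16 rose and none fell, against 7.86% and 4.33% of all tested genes. Their median log2 fold change was 0.42, and 7 were called in the 6 libraries. In mean log2 CPM of this list, 24 h replicate 2 stood 0.189 above the mean of controls 1 to 3. Young controls 4, 5 and 6 stood 0.265, 0.407 and 0.139 above it. Tnip1, an inhibitor of the pathway, was at 137, 108 and 130.3 CPM against 72.8, 63.3 and 72.2 CPM (0.85 ± 0.10, edgeR adjusted p = 2.28e-07, and 0.00182). Traf1, a signal adaptor, was at 6.78, 3.39 and 6.41 CPM against 1.49, 1.08 and 1.03 CPM (2.19 ± 0.33, edgeR adjusted p = 2.62e-05, and 0.00339). Nfkbia, the inhibitor IκBα, was at 126, 94.6 and 148 CPM against 83.1, 63.2 and 70.9 CPM (0.76 ± 0.17, edgeR adjusted p = 0.00221, and 0.0287). All 3 stood above the controls in every treated library. Of 37 cytokines and chemokines 14 rose and none fell, 8 of them in the 6 libraries alone, with a median log2 fold change of 0.64. The mean log2 CPM of this list at 24 h stood 0.898, 0.310 and 0.605 above the mean of controls 1 to 3. Young controls 4, 5 and 6 differed from it by 0.227, 0.468 and -0.167, so 24 h replicate 2 lay within the spread of young controls. Ccl4 and Ccl3, chemokines that attract leukocytes, rose by 1.28 ± 0.13 and 1.00 ± 0.12 on the log2 scale. Csf1, the gene of macrophage colony-stimulating factor itself, was at 98.2, 63.5 and 89.7 CPM against 33.2, 40.7 and 33 CPM (1.23 ± 0.21, edgeR adjusted p = 0.000152, and 0.00177). Tnf was at 37.9, 49 and 37.5 CPM against 25.9, 20.9 and 28.7 CPM (0.72 ± 0.21, edgeR adjusted p = 0.0201, and 0.0253). Its edgeR adjusted p was 0.0792 without 24 h replicate 2, 0.0503 without control replicate 1 and 0.124 without control replicate 2. Ccl2 was at 50.01, 69.1 and 31.1 CPM against 27.8, 28.3 and 33.1 CPM (0.75 ± 0.23), with groups that overlap and an edgeR adjusted p of 0.0264, 0.196 in the 6 libraries, 0.0897 without 24 h replicate 1, 0.197 without 24 h replicate 2, 0.0887 without control replicate 1 and 0.0988 without control replicate 2. Il1b was at 8.31, 4.64 and 8.23 CPM against 2.7, 5.54 and 2.63 CPM and did not pass (edgeR adjusted p = 0.201), and Il6 was at 0.219, 0 and 0.0432 CPM against 0.16, 0 and 0.019 CPM. Acod1, the enzyme that makes itaconate, was at 176, 77.3 and 141 CPM against 22.3, 13 and 31.8 CPM (2.56 ± 0.31, edgeR adjusted p = 1.33e-06, and 0.0583 in the 6 libraries). Ass1, of arginine synthesis, was at 63.7, 55.6 and 58.4 CPM against 20.7, 14.6 and 32.3 CPM (1.39 ± 0.21, edgeR adjusted p = 2.46e-05, and 0.0398). Nos2, the inducible nitric oxide synthase, was near the limit of detection at 0.219, 0.0726 and 0.367 CPM against 0, 0 and 0.019 CPM. Its edgeR adjusted p was 0.0148 in the 42 libraries, 0.112 in the 6 libraries, 0.0549 without 24 h replicate 1, 0.0944 without 24 h replicate 3, 0.0542 without control replicate 1 and 0.0685 without control replicate 2. Arg1, arginase 1, was at 0.0994, 0.127 and 0.194 CPM against 0.319, 0.0684 and 0.0381 CPM.

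Most NRF2 target and pentose phosphate genes rose, and all 3 treated libraries shared the rise. NRF2 is the transcription factor of the response to oxidants, and it binds the antioxidant response element. Of 28 genes tested 22 rose and none fell, against 7.86% and 4.33% of all tested genes. Their median log2 fold change was 0.48, and 15 rises were called in the 6 libraries alone. The median differences from the control mean were 0.57, 0.39 and 0.54 in replicates 1, 2 and 3. Replicate 2 was the lowest treated library for 21 of the 28 genes. It was the lowest for 43.3% of all tested genes and for 83.9% of the 542 rises called in both fits. It lay within the range of the controls for 2 of the 28, against 8062 of all 17648 tested genes. Slc7a11, the cystine transporter that feeds glutathione synthesis, was at 168, 115 and 146 CPM against 22.6, 16.9 and 20.6 CPM (2.83 ± 0.34, edgeR adjusted p = 1.67e-06, and 1.07e-05). Srxn1, sulfiredoxin, was at 311, 272 and 312 CPM against 153, 152 and 162 CPM (0.94 ± 0.18, edgeR adjusted p = 0.000477, and 0.000302). Prdx1, an abundant peroxiredoxin, was at 3022, 2937 and 3298 CPM against 1878, 1730 and 1869 CPM (0.76 ± 0.12, edgeR adjusted p = 1.49e-05, and 0.00127). Replicate 2 was the lowest treated library in these 3 genes and stood well above every control. Prdx6 and Sqstm1, the selective autophagy receptor p62, rose by 0.97 ± 0.11 and 0.84 ± 0.14 on the log2 scale. Hmox1, heme oxygenase and a textbook NRF2 target, did not pass the test, at 821, 1128 and 804 CPM against 934, 645 and 1074 CPM (edgeR adjusted p = 0.937).

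The element core TGACNNNGC was found on either strand in 10 of 34 promoter windows of these genes (29.4%) and in 12.4% of all windows. The share in the mitosis list, 25.9%, was close to that of the NRF2 list. The promoter of Prdx1 is shown because its gene rose in both fits, with the element in capitals as it reads from the other strand.
Prdx1 (chr4:116685349-116685598, plus strand): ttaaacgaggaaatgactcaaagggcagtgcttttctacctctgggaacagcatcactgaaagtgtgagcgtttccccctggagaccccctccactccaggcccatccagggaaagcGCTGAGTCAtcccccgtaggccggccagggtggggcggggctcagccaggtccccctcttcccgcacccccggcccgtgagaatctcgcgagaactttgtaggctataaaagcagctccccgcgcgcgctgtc

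Iron genes rose in 6 of 15 cases with no fall, against 7.86% and 4.33% of all tested genes, and 5 of the rises were called in the 6 libraries. Slc11a2, an iron importer, was at 139.9, 112 and 131 CPM against 81.1, 64.8 and 83.8 CPM (0.74 ± 0.09, edgeR adjusted p = 4.63e-07, and 0.00801). Fth1, the ferritin heavy chain, was at 13970, 10770 and 13580 CPM against 8917, 6480 and 9434 CPM (0.63 ± 0.11, edgeR adjusted p = 0.000174, and 0.0431). Steap3, an endosomal ferrireductase, rose by 0.64 ± 0.12 on the log2 scale.

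Osteoclast-lineage genes rose in 11 of 20 cases with no fall, against 7.86% and 4.33% of all tested genes. Their median log2 fold change was 1.14, and 7 rises were called in the 6 libraries. Osteoclasts are bone-resorbing cells that arise from the same precursors as macrophages and attach through integrin αvβ3 and Src. Itgb3, the integrin subunit, was at 80.9, 34.6 and 83.1 CPM against 11.1, 15.7 and 11.8 CPM (2.36 ± 0.27, edgeR adjusted p = 4.97e-07, and 0.0287). Src was at 25.4, 3.32 and 17.3 CPM against 1.79, 1.22 and 1.33 CPM (3.40 ± 0.54, edgeR adjusted p = 7.3e-05, and 0.0883 in the 6 libraries). Replicate 2 reached less of the rise than replicates 1 and 3 in both genes. Acp5, tartrate-resistant acid phosphatase, was at 6.32, 3.97 and 6.48 CPM against 1.06, 1.22 and 1.73 CPM (2.06 ± 0.23, edgeR adjusted p = 5.74e-08, and 0.00308). The collagenase cathepsin K (Ctsk) was at 8.19, 9.51 and 6.35 CPM against 3.42, 3.17 and 2.91 CPM (1.34 ± 0.26, edgeR adjusted p = 0.000355, and 0.0061). The gelatinase Mmp9 was at 8.69, 4.26 and 9.2 CPM against 1.61, 2.14 and 1.64 CPM (2.03 ± 0.41, edgeR adjusted p = 0.000873, and 0.00399). Acp5, Ctsk and Mmp9 were under 10 CPM in all 6 libraries. Car2, the carbonic anhydrase of osteoclasts, was at 0.557, 0.381 and 0.734 CPM against 0, 0 and 0.019 CPM. Among podosome, integrin and actin genes 5 of 22 rose and 4 fell, to be read against the same shares of all tested genes. Mmp12, the macrophage elastase, was at 1756, 1925 and 2015 CPM against 635, 992 and 622 CPM (1.34 ± 0.32, edgeR adjusted p = 0.00588, and 0.00389). The integrin subunits Itga6 and Itgb5 fell, Itga6 from 442, 491 and 429 CPM to 215, 336 and 218 CPM (-0.82 ± 0.13, edgeR adjusted p = 1.75e-05, and 0.0323) and Itgb5 by 0.63 on the log2 scale.

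Lysosomal genes changed by small amounts. Of 38 genes 16 rose and 3 fell, with a median log2 fold change of 0.23, and 8 rises and 2 falls were called in the 6 libraries. Psap, the precursor of the saposins, was at 14780, 9267 and 14460 CPM against 7831, 7315 and 7966 CPM (0.74 ± 0.12, edgeR adjusted p = 4.42e-05, and 0.0259). Gpnmb, a lysosomal membrane glycoprotein, was at 13040, 9799 and 13820 CPM against 8161, 7455 and 8077 CPM (0.63 ± 0.10, edgeR adjusted p = 5.01e-05, and 0.0181). Cathepsin Z (Ctsz) was at 1315, 958 and 1239 CPM against 707, 564 and 754 CPM (0.79 ± 0.10, edgeR adjusted p = 2.75e-07, and 0.0114). Treated libraries 1 and 3 were alike in these 3 genes and replicate 2 lay between them and the controls. Cathepsin C (Ctsc) fell, from 379.9, 386 and 398 CPM to 288, 322 and 274 CPM (-0.40 ± 0.09, edgeR adjusted p = 0.002, and 0.0277). Of 15 subunits of the proton pump that acidifies lysosomes 10 rose and none fell, 4 of them in the 6 libraries. Over all tested genes 7.86% rose. Atp6v0b was at 274, 206 and 241 CPM against 171, 137 and 176 CPM (0.57 ± 0.10, edgeR adjusted p = 0.000102, and 0.0277), and Atp6v0e at 185, 176 and 216 CPM against 132, 133 and 136 CPM (0.52 ± 0.08, edgeR adjusted p = 1.56e-05, and 0.0139). The E-box CACGTG, which the lysosomal regulator TFEB and many other factors bind, was found in 12 of 36 promoter windows of lysosomal genes (33.3%), in 4 of 13 windows of pump subunits (30.8%) and in 7.2% of all windows. The promoter of Atp6v0b is shown because it holds the E-box, in capitals, more than once near the start.
Atp6v0b (chr4:117887330-117887579, minus strand): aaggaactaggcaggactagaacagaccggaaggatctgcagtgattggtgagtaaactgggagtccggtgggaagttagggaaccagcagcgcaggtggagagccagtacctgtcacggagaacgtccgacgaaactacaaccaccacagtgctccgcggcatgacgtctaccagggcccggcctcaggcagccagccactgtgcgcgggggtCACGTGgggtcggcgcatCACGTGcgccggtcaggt

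Oxidase and antimicrobial genes rose in 9 of 18 cases and fell in 1, against 7.86% and 4.33% of all tested genes. Their median log2 fold change was 0.51. Cybb and Cyba form the membrane core of the phagocyte NADPH oxidase. Cybb was at 2199, 1413 and 2249 CPM against 1069, 1148 and 1066 CPM (0.84 ± 0.15, edgeR adjusted p = 0.000164, and 0.0164), and Cyba at 732, 483 and 696 CPM against 354, 298 and 373 CPM (0.90 ± 0.11, edgeR adjusted p = 4.97e-07, and 0.0114). Ncf1, the cytosolic organiser of the same oxidase, was the fall, at 262, 261 and 257 CPM against 332, 299 and 349.6 CPM (-0.33 ± 0.08, edgeR adjusted p = 0.00509, and 0.0479). The subunits of the oxidase therefore did not move in 1 direction. Lgals3, the galectin-3 gene, was at 2543, 1832 and 2169 CPM against 896, 942 and 877 CPM (1.27 ± 0.13, edgeR adjusted p = 2.57e-08, and 0.000256). Complement C3 was at 734, 142 and 613 CPM against 98, 72 and 112 CPM (2.40 ± 0.45, edgeR adjusted p = 0.000572, and 0.155 in the 6 libraries). Replicates 1 and 3 had several times the C3 of replicate 2.

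Lipid genes moved in more than 1 direction. Of 18 LXR target and lipid genes 8 rose and none fell, against 7.86% and 4.33% of all tested genes. LXR is a nuclear receptor for oxidised sterols that drives cholesterol export, and its gene Nr1h3 was at 62.7, 36.2 and 70.5 CPM against 25.1, 21.4 and 26.1 CPM (1.22 ± 0.18, edgeR adjusted p = 1.68e-05, and 0.0265). The fatty acid-binding protein Fabp4 was at 126, 91.3 and 126 CPM against 55.6, 56.8 and 46.8 CPM (1.11 ± 0.16, edgeR adjusted p = 1.11e-05, and 0.00111), and Plin2, which coats lipid droplets, rose by 0.48 ± 0.08 on the log2 scale. Of 21 sterol synthesis and uptake genes 5 fell and none rose, among them Hmgcs1, an early enzyme of the pathway, from 132, 126 and 143 CPM to 94.7, 109.6 and 100.2 CPM (-0.40 ± 0.09, edgeR adjusted p = 0.00218, and 0.0341). Without 24 h replicate 2, 10 sterol genes were called lower and 1 higher, against 7.38% and 10.4% of all tested genes. The median differences of this list from the control mean were -0.501, -0.112 and -0.25 in replicates 1, 2 and 3. The library left out was thus the one nearest the controls, so these counts describe replicates 1 and 3. The mean log2 CPM of this list at 24 h differed by -0.431, -0.139 and -0.185 from the mean of controls 1 to 3. Control 2 differed from that mean by -0.153, and young controls 4, 5 and 6 by -0.189, 0.036 and -0.193. By this measure 24 h replicates 2 and 3 lay within the range of the young controls. In prostaglandin synthesis the constitutive cyclooxygenase Ptgs1 fell from 46.4, 49.4 and 51.8 CPM to 19.7, 29.6 and 24.3 CPM (-1.003 ± 0.22, edgeR adjusted p = 0.00222, and 0.00348). The inducible cyclooxygenase Ptgs2 rose from 2.54, 1.56 and 1.03 CPM to 5.69, 4.36 and 8.89 CPM (1.87 ± 0.41, edgeR adjusted p = 0.0026, and 0.0169). The terminal synthases Hpgds and Tbxas1 fell by 0.42 and 0.41 on the log2 scale, each in both fits.

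Genes of energy metabolism, chromatin and the endoplasmic reticulum are read against all tested genes, of which 7.86% rose, 4.33% fell and 12.2% did either. Of 25 glycolysis and hypoxia genes 4 rose and 2 fell, with Pfkfb3, which makes the activator of glycolysis, at 58.4, 63.4 and 65.8 CPM against 43.2, 43.9 and 42.6 CPM (0.53 ± 0.10, edgeR adjusted p = 0.000511, and 0.0115). Of 21 TCA cycle genes 5 rose and 1 fell, none in the 6 libraries, and of 26 nuclear respiratory chain genes 4 rose, 1 of them in the 6 libraries. Of 10 transcripts of the mitochondrial genome 3 fell, none in the 6 libraries. The mitochondrial genome held 1.24%, 1.72% and 1.33% of counts in the treated libraries and 1.93%, 1.81% and 1.7% in the controls, so replicate 2 was within the control range here too. Of 21 chromatin enzymes linked to trained immunity 2 rose and 2 fell, close to the shares of all tested genes, and the DNA methyltransferase Dnmt3a was the single one called in both fits, at 324, 231 and 300.2 CPM against 171, 185 and 164 CPM (0.72 ± 0.09, edgeR adjusted p = 5.03e-07, and 0.00789). Of 18 mTOR signalling genes 2 fell and none rose, each in both fits. Pik3cg, a leukocyte PI3 kinase, fell from 199, 185 and 209 CPM to 102, 127 and 115 CPM (-0.78 ± 0.12), and Inpp5d, the phosphatase that opposes it, fell by 0.47 on the log2 scale. Of 20 unfolded protein and integrated stress genes 4 rose and 4 fell, and 3 of the rises and 1 of the falls were called in the 6 libraries. Atf3, a stress-induced factor, rose (0.64 ± 0.10), while the chaperone Pdia4 fell (-0.54 ± 0.12), each in both fits.

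Receptors and regulators of signalling changed in single members, where 7.86% of all tested genes rose and 4.33% fell. Plaur, the urokinase receptor, was at 86.3, 74.1 and 81.9 CPM against 41.6, 38.5 and 41.5 CPM (1.00 ± 0.18, edgeR adjusted p = 0.000369, and 0.00032), and 4 of 13 coagulation and fibrinolysis genes rose while F13a1 fell. Dusp4, a phosphatase that inactivates MAP kinases, was at 80.9, 69.6 and 72 CPM against 34.6, 36 and 32.1 CPM (1.11 ± 0.19, edgeR adjusted p = 0.000147, and 0.000256). Dusp6, a phosphatase of the same family, went the other way, at 58.9, 97.7 and 72.6 CPM against 134, 129 and 147 CPM (-0.84 ± 0.21, edgeR adjusted p = 0.00676, and 0.0277, though 0.0817 without 24 h replicate 1). The groups did not overlap in any of these 3 genes. Of 16 costimulatory and checkpoint ligands 4 rose and none fell, Cd274 among them. Cd40 was at 5.07, 3.63 and 4.08 CPM against 3.03, 1.39 and 2.23 CPM (0.94 ± 0.29), with an edgeR adjusted p of 0.0275 in the 42 libraries, 0.105 in the 6 libraries, 0.165 without 24 h replicate 1, 0.0637 without 24 h replicate 3, 0.187 without control replicate 2 and 0.0645 without control replicate 3. Cd86 was at 25.6, 20.4 and 26.7 CPM against 14.7, 17.9 and 18.8 CPM and did not pass (edgeR adjusted p = 0.258).

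The 24 h libraries were set against those of 4 h to see how the response differed with exposure, without the controls. Of 17648 genes, 703 were higher at 24 h than at 4 h (3.98%) and 761 were lower (4.31%), together 1464 (8.30%), with edgeR's quasi-likelihood test. In the 6 libraries of both groups alone 452 were higher (2.58%) and 486 lower (2.77%), together 938 (5.35%). Of the 30 NF-κB genes 16 were lower at 24 h and none was higher, with a median log2 difference of -0.42. Tnf was at 332, 284 and 374 CPM at 4 h, a log2 difference of -2.99 ± 0.22 between 24 h and 4 h (edgeR adjusted p = 9.9e-11). The chemokine Cxcl2 was at 318, 229.6 and 323 CPM at 4 h, 22.3, 26 and 29.2 CPM at 24 h and 12.1, 9.36 and 6.84 CPM in controls (-3.49 ± 0.39, edgeR adjusted p = 4.7e-07). Both were many times higher at 4 h than at 24 h. The adhesion molecule Icam1 was at 379, 353 and 356 CPM at 4 h and 171, 103 and 156 CPM at 24 h (-1.34 ± 0.14, edgeR adjusted p = 1.76e-08). Slc7a11 and Sqstm1 were lower at 24 h than at 4 h too (-1.34 ± 0.32 and -1.01 ± 0.14), and 9 of the 28 NRF2 and pentose phosphate genes were. Of the 56 interferon-stimulated genes, 29 were higher at 24 h and 1 was lower. Irf7 was at 8.38, 7.95 and 8.74 CPM at 4 h (2.19 ± 0.36, edgeR adjusted p = 0.000159) and Oas3 at 24.1, 24.3 and 23.2 CPM (1.93 ± 0.31, edgeR adjusted p = 0.00012), both near the level of the controls. Cdkn1c differed by 5.75 ± 0.76 (edgeR adjusted p = 6.49e-06) and Itgb3 by 1.91 ± 0.27 (edgeR adjusted p = 1.38e-05), each higher at 24 h. For Met, Il1rn and Cd274 the log2 differences between 24 h and 4 h were 0.20 ± 0.30, -0.25 ± 0.29 and -0.26 ± 0.14 and did not pass. Among falls, F13a1 and Fcrls were lower at 24 h than at 4 h (-1.94 ± 0.37 and -1.35 ± 0.29), while Gpr34, at 7.02, 7.77 and 6.75 CPM at 4 h, and P2ry12, at 6.88, 6.08 and 5.63 CPM, did not differ past the threshold (-0.45 ± 0.33 and -0.06 ± 0.38). Rhobtb1, a protein with BTB domains, was at 3.13, 2.66 and 2.64 CPM at 4 h, 13.4, 10.4 and 13.3 CPM at 24 h and 18.8, 20.0 and 22.2 CPM in controls (2.13 ± 0.37, edgeR adjusted p = 0.00019). Gpr84, a receptor for medium-chain fatty acids, was at 217, 162 and 166 CPM at 4 h, 20.8, 44.9 and 26 CPM at 24 h and 46.6, 28.2 and 59.6 CPM in controls (-2.57 ± 0.39, edgeR adjusted p = 4.46e-05). The 4 h level thus stood apart from both other groups, below them for Rhobtb1 and above them for Gpr84. Saa3, an acute-phase protein, was at 18.6, 18.9 and 18.1 CPM at 4 h, 180.4, 33.3 and 139 CPM at 24 h and 31.5, 8.57 and 38.4 CPM in controls (2.66 ± 0.54, edgeR adjusted p = 0.00164). The chemokine Ccl5 was at 4.56, 4.6 and 4.55 CPM at 4 h, 65.7, 5.75 and 30.4 CPM at 24 h and 5.92, 2.45 and 7.79 CPM in controls (2.89 ± 0.67, edgeR adjusted p = 0.00509, and 0.102 without 24 h replicate 1). In both, 24 h replicate 2 lay within the range of the controls and replicates 1 and 3 far above it. Against the controls the edgeR adjusted p was 0.00673 for Saa3 (0.28 in the 6 libraries, 0.0748 without 24 h replicate 1 and 0.0539 without control replicate 2) and 0.00676 for Ccl5 (0.254 in the 6 libraries, 0.134 without 24 h replicate 1 and 0.0544 without control replicate 2). For Cxcl2 against the controls it was 0.0118, and 0.0506 without 24 h replicate 3 and 0.0622 without control replicate 3. Since the controls were collected at another time than either, the level just before exposure was not measured here. Without 24 h replicate 1 the counts were 246 higher and 435 lower, without 24 h replicate 3 they were 315 and 471, and without 24 h replicate 2 they were 1216 and 1205. Without 4 h replicate 1 they were 334 and 430, and without 4 h replicate 3, 403 genes were higher.

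**Figure D4:**
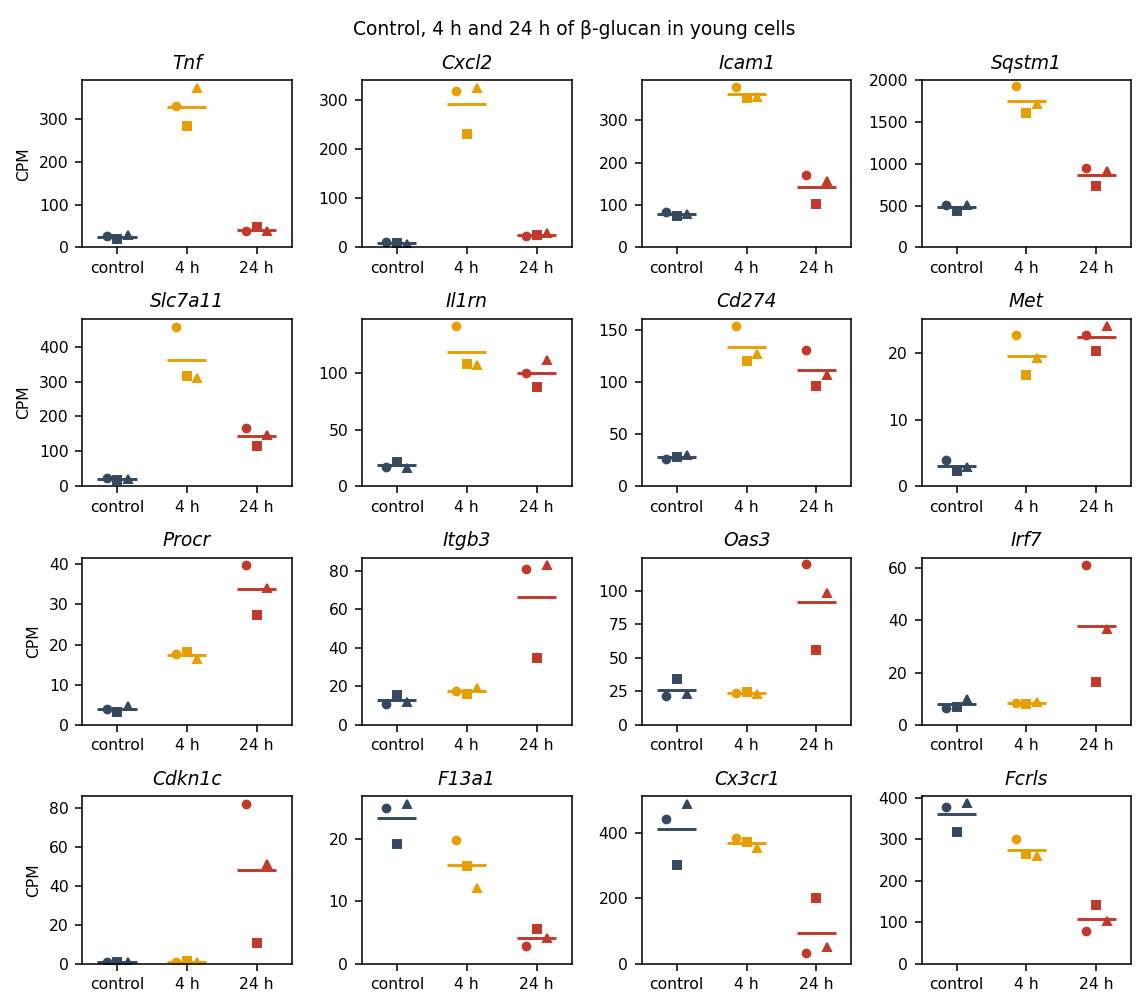
CPM of 16 genes in young control, 4 h and 24 h libraries; points are libraries, with the same shapes for replicates 1 to 3 as in the other plots, and lines are group means. Tnf, Cxcl2, Icam1 and Sqstm1 are highest at 4 h, Il1rn, Cd274 and Met stand above the controls at both 4 h and 24 h, and Itgb3, Oas3, Irf7 and Cdkn1c are near the controls at 4 h and higher at 24 h.

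The same exposure in macrophages of aged mice gave a test of whether the response differed with age. No gene passed for the difference between the effects of 24 h of β-glucan in aged and young cells with edgeR's quasi-likelihood test (0 of 17648, 0% either way), with 533 genes at an unadjusted p under 0.05 and 2 lower genes with DESeq2. Those 533 are a smaller share of the 17648 than the 0.05 that such a cutoff passes on average where no gene differs. A p that misses the threshold does not show that the effects were equal. Procr was at 35.3, 19.1 and 26.1 CPM in the aged 24 h libraries and 4.12, 3.46 and 2.85 CPM in aged controls, with a difference of effects, aged minus young, of -0.13 ± 0.32 on the log2 scale. For Slc7a11 the aged libraries were at 133, 73.3 and 99.2 CPM against 13.2, 14.2 and 11.7 CPM (0.13 ± 0.46), and for F13a1 at 3.06, 9.02 and 10.6 CPM against 20.2, 19.2 and 17.8 CPM (1.15 ± 0.50). The direction in aged cells was that of young cells in these 3 genes. The aged 24 h libraries also differed among themselves. Cdkn1c was at 74.3, 9.4 and 13.3 CPM in aged 24 h replicates 1, 2 and 3 and 1.05, 0.718 and 0.611 CPM in aged controls, and Irf7 at 48.2, 21.9 and 16.4 CPM against 12.7, 9.24 and 8.94 CPM. Aged replicate 1 was the highest for both. For interferon-stimulated genes the mean log2 CPM of the list differed from that of the aged controls by 1.55, 0.62 and 0.07 in aged replicates 1, 2 and 3, and from the young controls by 1.63, 0.52 and 1.22 in young replicates 1, 2 and 3. For DNA replication genes these differences were -0.97, 0.01 and -0.01 in aged and -0.91, -0.07 and -0.83 in young libraries. So 1 of 3 aged and 2 of 3 young libraries had low DNA replication genes, and each of these 3 also had the larger rise of interferon-stimulated genes within its group. For NRF2 and pentose phosphate genes the differences were 0.72, 0.48 and 0.59 in aged and 0.66, 0.44 and 0.65 in young libraries, which overlap.

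**Figure D5:**
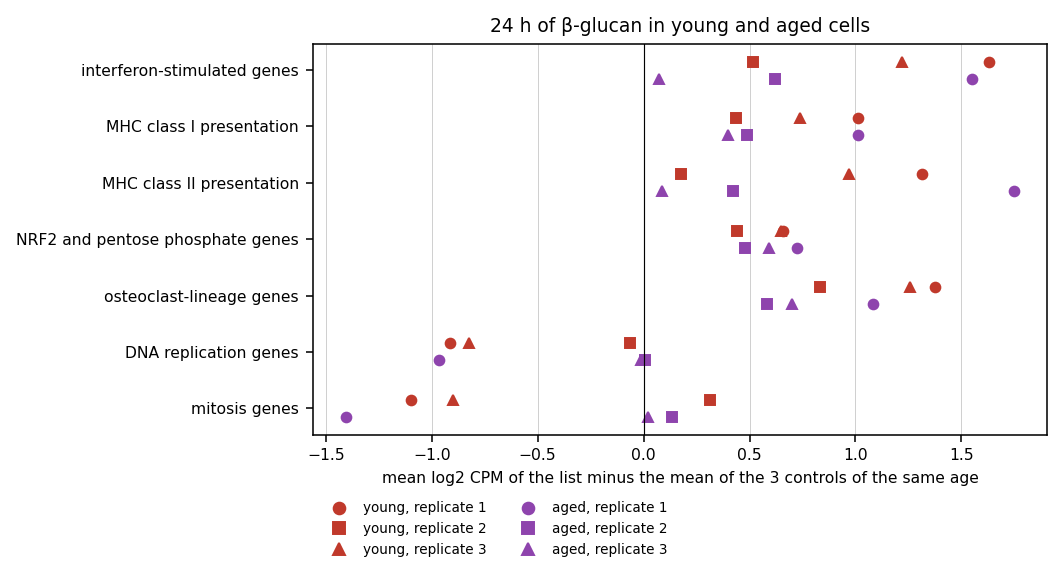
Mean log2 CPM of 7 gene lists in each 24 h library minus the mean of the 3 controls of the same age (red, young; purple, aged; the shape gives the replicate). Aged replicate 1 and young replicates 1 and 3 lie at the low end for DNA replication and mitosis genes, while all 6 libraries lie together for NRF2 and pentose phosphate genes.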

How the data were processed

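RNA was extracted with a column kit and DNase and made into NEBNext Ultra libraries, per the labels' protocols. The authors deposited raw read counts per gene, 1 column per library, for 54532 genes. Reads were aligned with STAR to mm10, per the submitters' processing notes. The STAR version, the counting program, the annotation and the strand setting are not given in the sources used here, so reads of overlapping or near-identical genes may be divided or shared. Normalized values of the same libraries (FPKM) were not used. Libraries were grouped by their titles, treatments and ages.

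Counts of all 42 libraries were filtered with filterByExpr (minimum count 10), which kept 17648 genes, normalized by TMM and fitted with edgeR 4.0.16 (quasi-likelihood, robust, 14 groups, with young replicates 4 to 6 as groups of their own) in R 4.3.3. Contrasts were 24 h against control, 24 h against 4 h, and the difference of the 24 h effects between ages. Adjusted p-values are Benjamini-Hochberg over all tested genes, with a threshold of 0.05. The 6 libraries alone were fitted the same way (17473 genes). CPM use TMM-scaled library sizes, and log2 CPM a prior count of 2. The 6 libraries held 40621260 to 48302374 counts each, and p-values rest on 3 libraries a group.

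Genes were described in 48 lists of 921 entries, of which 3 matched no gene of the table. The members and lists were chosen with earlier results of these data known. Named genes are the 12 largest rises and falls called in both fits (mean log2 CPM of at least 3, groups not overlapping), a list of 30 key genes, for each list up to 5 members that moved with its median, by lowest adjusted p, and up to 2 called the other way, the most abundant markers of other cell types, the 5 interferon-stimulated, DNA replication and mitosis genes in which 24 h replicate 2 lay farthest from the other 24 h libraries (a description, with no test), and the 6 largest differences each way between 24 h and 4 h. Not all of them are printed. Pecam1 was named after its values were seen. Promoter windows, from 250 bases before to 50 after each start, came from RefSeq on GRCm38.p6, and motifs were searched on both strands with Python 3.11.15. Alternatives were scaling by total counts, DESeq2 1.42.0, no count filter, fewer libraries, all 6 young controls, the replicate number as a block, and leaving out each library. The fits were tested on simulated counts with known changes.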

Additional observations from a re-analysis of the deposited data

How the results depend on the processing

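For 24 h against control, the main counts were 1387 higher and 765 lower. They moved by more than 1.5 times to 550 and 313 in the 6 libraries alone, and the lower count moved to 1261 with scaling by total counts. For 24 h against 4 h, the counts of 703 and 761 moved to 452 and 486 in the libraries of both groups alone. For the age difference DESeq2 gave 2 lower genes where edgeR gave 0. Leaving out each library in turn gave 611 to 1827 higher and 224 to 1302 lower genes against the controls, 246 to 1216 and 430 to 1205 against 4 h, and 0 to 1 lower genes for the age difference, with the 1 seen without young control replicate 3. The highest counts came without 24 h replicate 2 and the lowest higher counts without 24 h replicate 1, and the cause was not tested. Without the count filter (1144 and 563), with the 18 young libraries (1465 and 791), with all 6 controls (1375 and 662) and with DESeq2 (1448 and 1062) the counts against the controls stayed within 1.5 times. No named gene called in the main comparison changed sign in these alternatives, but many results were weaker. Of 295 results for named genes, 78 were weaker and 3 stronger with only the libraries of the groups compared. Without 24 h replicate 1, 68 were weaker and 1 stronger, and without 24 h replicate 3, 48 were weaker. Without 24 h replicate 2, 7 were weaker and 24 stronger.

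With the replicate number as a block the counts were 1495 and 879 against the controls, 830 and 849 against 4 h, and 0 for the age difference. The labels do not say whether libraries of the same number share more than that number. Deviations of same-numbered 24 h and control libraries correlated at 0.143, 0.26 and 0.09 over 8499 genes, and those of 24 h and 4 h libraries at 0.098, 0.173 and -0.015. For libraries of different numbers the correlations ran from -0.273 to 0.239 with the controls and from -0.183 to 0.168 with the 4 h libraries. Among the controls, 24 h replicate 1 correlated best with control replicate 3 (0.239).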

Other observations

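Several gene groups outside the main account held single large values. Complement factor B (Cfb) was at 2.21, 0.417 and 2.46 CPM at 24 h against 0.16, 0.308 and 0.19 CPM in controls (edgeR adjusted p = 0.00124, and 0.0281 in the 6 libraries). Of 10 complement components 3 rose and none fell, against 7.86% and 4.33% of all tested genes. Their mean log2 CPM at 24 h stood 0.870, 0.190 and 0.697 above the mean of controls 1 to 3. Young controls 4, 5 and 6 stood 0.470, 0.357 and 0.445 above it, each higher than 24 h replicate 2. Adgre4, an adhesion receptor of macrophages, was at 90.0, 12.4 and 71.1 CPM against 6.62, 16.8 and 8.21 CPM, so that 24 h replicate 2 lay within the range of the controls while replicates 1 and 3 lay far above it. In the edgeR test its adjusted p was 0.0175 with the 42 libraries and 0.224 with the 6 libraries, 0.124 without 24 h replicate 1, 0.0632 without 24 h replicate 3, 0.0833 without control replicate 1 and 0.07 without control replicate 3. Of 20 unfolded protein and integrated stress genes, 13 were lower at 24 h than at 4 h, against 4.31% of all tested genes. Among them Psat1, an enzyme of serine synthesis, was at 65.5, 65.8 and 64.2 CPM at 4 h, 31.2, 45.7 and 29.3 CPM at 24 h and 49.8, 67.9 and 50.8 CPM in controls, and Trib3, a pseudokinase of the stress response, at 12.9, 11.4 and 13.3 CPM, 7.32, 5.41 and 7.32 CPM and 3.55, 2.98 and 2.8 CPM. Of 25 glycolysis and hypoxia genes, 10 were lower at 24 h than at 4 h and none was higher, against 4.31% and 3.98% of all tested genes. Ezh2, the histone methyltransferase of the polycomb complex, was at 19.5, 43.1 and 21.6 CPM at 24 h against 43.8, 51.1 and 41.6 CPM in controls, the same order of libraries as for DNA replication genes.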
